A study of Mus musculus with 9 samples.

Results

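The B cell lineage genes described here are 9 genes that mark B lymphocytes from their commitment in bone marrow to the resting cell in spleen: Ebf1, Pax5, Cd79a, Cd79b, Blk, Bank1, Cr2, Fcer2a and Vpreb3. They are 9 of the 19937 genes that a probe set with a single gene symbol measured on the arrays. Each was read from its brightest such probe set by the mean over all 9 arrays. The 9 were selected on their measured levels in the Ly6C-high sort of brain microglia, where Ebf1 was high and the other 8 were not. Their levels in that sort, and both contrasts that use it, are therefore a description and carry no test.

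RNA from sorted cells of wild type C57BL/6 mice was hybridised to Affymetrix whole-transcript arrays, with 3 arrays for each of the 3 sorts: Ly6C-high microglia, Ly6C-low microglia and, from another organ, spleen monocytes. Inflammatory monocytes carry Ly6C on their surface, and so do brain endothelial cells. The labels name the Ly6C-high cells MgSCs and the Ly6C-low cells bulk microglia, and for spleen monocytes they give no Ly6C state. Mice were perfused with buffer, brains were digested with collagenase and DNase, leukocytes were enriched on Percoll, and cells were stained for MHC class II, F4/80, CD11b, CD45 and Ly6C. No B cell antigen is named in that stain. Neither the gates, the animals' age, the number of animals behind an array nor the preparation of the spleens is given in the sources used here. All groups share the strain, and none was treated. Because nothing says that replicates came from separate animals, every p-value speaks only of how these samples varied, and that variation may be technical.

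Levels are log2 intensities as the authors deposited them, so a difference of 1 is a doubling of signal. Means are given ± SD with n = 3 arrays per group, and differences between groups are log2 fold changes ± SE from limma, fitted to all 9 arrays and all 19937 genes. A gene passed the test where its Benjamini-Hochberg adjusted p over all genes was under 0.05. The number of arrays limits the precision. An array intensity has no true zero, so a low level does not show that a gene was silent, and the level of 1 probe set cannot be set against that of another. Differences from a dim group may be compressed by the summary method, so no fold is given for them.

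Marker genes of the sorted populations were read first. The mean level of 9 homeostatic microglia genes was 8.12 to 9.06 in Ly6C-high arrays, 11.1 to 11.6 in Ly6C-low arrays and 7.16 to 7.28 in spleen monocyte arrays. The mean of 14 brain endothelium genes was 10.3 to 10.9 in Ly6C-high arrays, 5.95 to 7.39 in Ly6C-low arrays and 5.96 to 6.05 in monocyte arrays. Some arrays stood apart from the others of their group. Ly6C-high replicate 1 had an interquartile range of 2.24 over its levels, where the other 8 arrays had 2.62 to 2.91, and its levels correlated at 0.909 and 0.923 with the other Ly6C-high arrays, which correlated at 0.946 with each other. Ly6C-high replicate 2 had a mean of 10.0 over 8 classical monocyte genes, where replicates 1 and 3 had 8.03 and 6.98. Ly6C-low replicate 3 had a mean of 10.1 over 8 neutrophil genes, where replicates 1 and 2 had 7.44 and 7.73. Ly6C-low replicate 1 had the highest endothelial mean of its group, 7.39, where replicates 2 and 3 had 6.72 and 5.95.

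B lymphocytes arise in bone marrow through a short cascade of transcription factors. EBF1, with E2A and under the control of IL-7 signals, opens the B cell programme and turns on Pax5, and PAX5 then keeps the cell committed. Together they drive the genes of the antigen receptor complex, in which membrane immunoglobulin is paired with the signalling chains encoded by Cd79a and Cd79b. Blk and Bank1 encode proteins that act downstream of that receptor, Vpreb3 marks the precursor stages, and Cr2 and Fcer2a encode surface receptors of mature B cells. EBF1 differs from the rest in that it also works outside blood, in adipocyte precursors, in stromal cells of the marrow and in pericytes of several organs.

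The promoter of Cd79a is a classical target of EBF1, and 3 promoter windows are printed here. They are those of Cd79a, of Ebf1 itself and of Bank1, the other gene whose pattern departed from the rest. The levels measured here do not test these promoters. Each window runs 5′ to 3′ on the gene's own strand, from 250 bases before to 50 bases after the RefSeq gene start (GRCm38.p6). Windows were found for 7 of the 9 genes, 10 windows in all, and Cd79b and Blk had none in the table used. Capitals mark a match to one of the motifs searched on both strands: ATTCCCTTG with its reverse complement, which are the letters of the known EBF1 site of the Cd79a promoter, and CCCNNGGG, the core that EBF proteins bind, which reads alike on both strands.
Cd79a (chr7:24897247-24897546, plus strand): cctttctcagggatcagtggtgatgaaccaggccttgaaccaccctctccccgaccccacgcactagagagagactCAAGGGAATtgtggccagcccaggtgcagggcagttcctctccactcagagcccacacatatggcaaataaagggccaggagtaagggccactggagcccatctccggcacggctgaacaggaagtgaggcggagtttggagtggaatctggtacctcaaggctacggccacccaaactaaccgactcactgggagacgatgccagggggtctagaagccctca
Ebf1 (chr11:44617850-44618149, plus strand): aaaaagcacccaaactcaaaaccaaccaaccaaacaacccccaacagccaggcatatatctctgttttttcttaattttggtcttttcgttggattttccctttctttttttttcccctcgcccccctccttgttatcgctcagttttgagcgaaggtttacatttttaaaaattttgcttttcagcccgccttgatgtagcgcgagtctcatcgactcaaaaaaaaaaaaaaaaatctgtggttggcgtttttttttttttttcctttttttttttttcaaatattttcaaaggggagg
Bank1 (chr3:136326017-136326316, minus strand): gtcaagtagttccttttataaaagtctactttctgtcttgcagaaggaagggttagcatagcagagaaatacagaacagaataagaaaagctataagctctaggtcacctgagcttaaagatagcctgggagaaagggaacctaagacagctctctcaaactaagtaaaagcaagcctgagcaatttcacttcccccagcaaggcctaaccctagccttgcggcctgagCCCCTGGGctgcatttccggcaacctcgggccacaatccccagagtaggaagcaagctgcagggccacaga

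The Cd79a window holds the stretch CAAGGGAAT, which starts at position -174 counted from the gene start. Among all 32851 windows of this length, 80 (0.244%) hold these letters on either strand. The Bank1 window holds CCCCTGGG at position -21, the only match to CCCNNGGG in the windows of these genes, and that looser core occurs in 13.7% of all windows. The Ebf1 window shown holds neither motif, which says only that these letters are not in this stretch. A match in letters is not a measured binding site.

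Ebf1 (probe set 10375360), the pioneer factor of the lineage, was high in Ly6C-high microglia and in spleen monocytes and low in Ly6C-low microglia. Its level was 9.20, 8.34 and 9.05 in the 3 Ly6C-high arrays, 6.79, 5.05 and 5.12 in the Ly6C-low arrays, and 7.92, 8.97 and 8.54 in the monocyte arrays. All 3 Ly6C-high arrays lay above all 3 Ly6C-low arrays and overlapped the monocyte arrays. The means were 8.87 ± 0.46 in the Ly6C-high sort, 5.65 ± 0.99 in the Ly6C-low sort and 8.47 ± 0.53 in monocytes. Ebf1 thus stood 3.21 ± 0.49 higher in Ly6C-high than in Ly6C-low microglia. In bulk RNA, here and for every gene below, more cells of a type in a sort and more transcript per cell cannot be told apart. Most of the spread within Ly6C-low microglia lay in replicate 1, the array with the highest endothelial mean of its group, and the difference was 3.78 without it. Replicates 2 and 3 of that sort had endothelial means of 6.72 and 5.95, with Ebf1 at 5.05 and 5.12. Among Ly6C-high arrays the endothelial mean was lowest in replicate 1 (10.3), in which Ebf1 was highest. The difference in Ebf1 was 3.05 without that Ly6C-high array, which had the narrow range. With both arrays of high monocyte or neutrophil means left out (replicate 2 of the Ly6C-high and replicate 3 of the Ly6C-low sort), it was 3.21. Against monocytes the difference of Ly6C-high microglia was 0.39 ± 0.49, within the spread of the arrays. It was 0.90 under quantile normalization, 0.11 without monocyte replicate 1, 0.23 without Ly6C-high replicate 1, 0.65 without Ly6C-high replicate 2 and 0.64 without monocyte replicate 2.

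Pax5 (probe set 10512669), the factor that EBF1 turns on and that holds B cells to their identity, did not show this pattern. It was at 6.30, 5.80 and 6.25 in Ly6C-high arrays, 5.89, 5.74 and 6.22 in Ly6C-low arrays, and 8.39, 8.62 and 8.85 in monocyte arrays. The microglia sorts overlapped, and both lay below every monocyte array. The mean was 6.11 ± 0.28 in the Ly6C-high sort, 5.95 ± 0.25 in the Ly6C-low sort and 8.62 ± 0.23 in monocytes. Between the microglia sorts Pax5 differed by 0.16 ± 0.19 (0.46 when replicate 2 of the Ly6C-high sort and replicate 3 of the Ly6C-low sort were left out), where Ebf1 differed by 3.21. Against monocytes, Pax5 stood at -2.51 ± 0.19 in Ly6C-high microglia, where Ebf1 stood at 0.39.

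**Figure D1:**
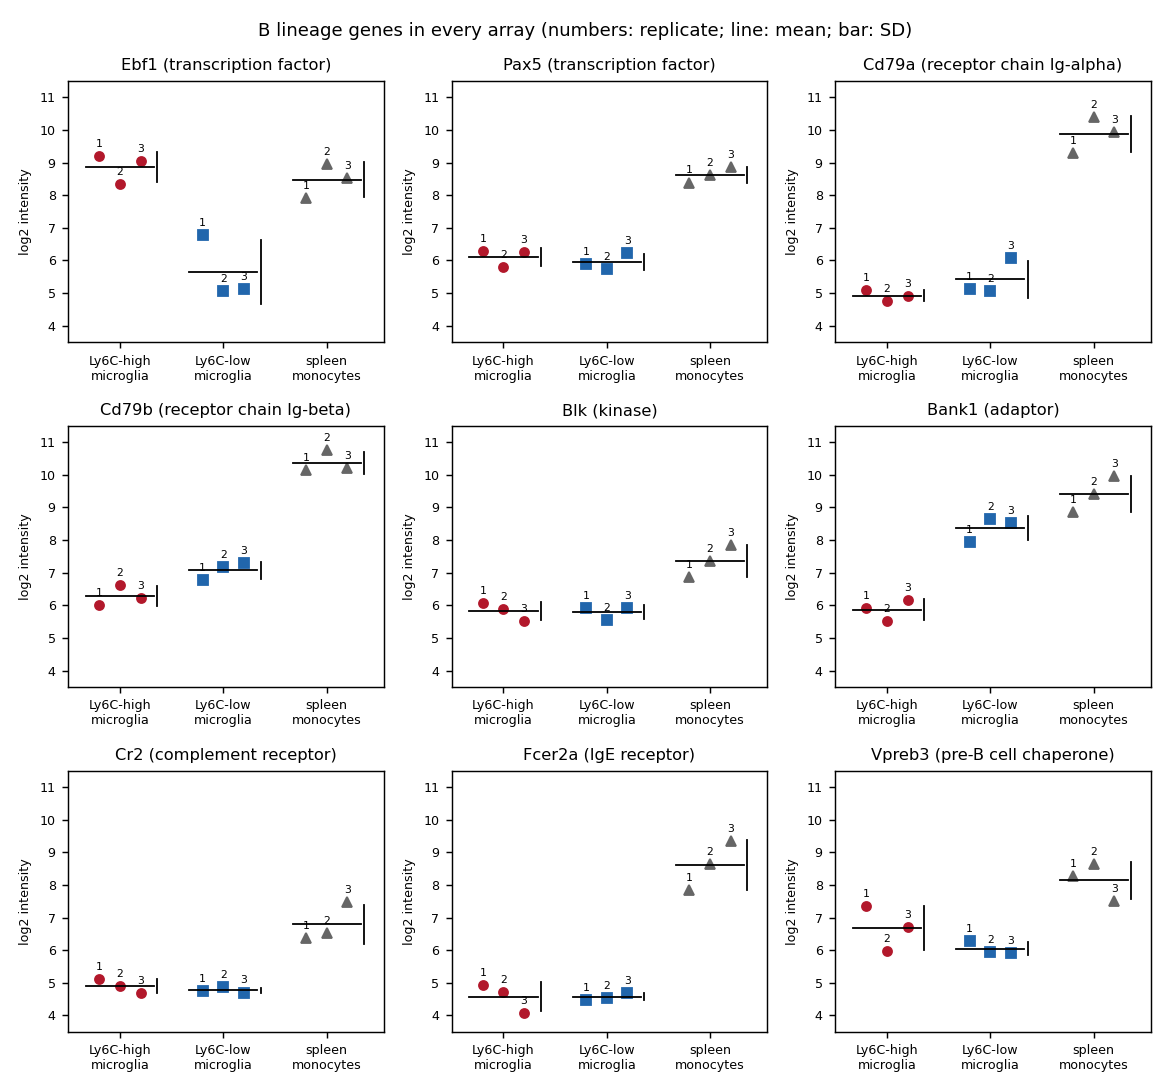
Log2 intensity of the 9 B lineage genes in each of the 9 arrays, with 1 panel per gene, points numbered by replicate, horizontal lines for group means and vertical bars for SD (n = 3). Ebf1 is high in Ly6C-high microglia (8.34 to 9.20) and low in Ly6C-low microglia (5.05 to 6.79), Bank1 runs the other way between these sorts, and the other 7 genes are low in both sorts and highest in spleen monocytes.

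Cd79a and Cd79b encode Ig-alpha and Ig-beta, the signalling chains of the B cell receptor. Cd79a (probe set 10551025) was at 5.11, 4.75 and 4.91 in Ly6C-high arrays, 5.12, 5.07 and 6.08 in Ly6C-low arrays, and 9.29, 10.41 and 9.94 in monocyte arrays. Its means of 4.92 ± 0.18 in Ly6C-high microglia and 5.43 ± 0.57 in Ly6C-low microglia came from overlapping arrays, and the monocyte mean was 9.88 ± 0.56. The difference between the microglia sorts was -0.51 ± 0.33, and -0.09 with replicate 2 of the Ly6C-high and replicate 3 of the Ly6C-low sort left out. Against monocytes the difference of Ly6C-high microglia was -4.96 ± 0.33. Low Cd79a beside high Ebf1 in the Ly6C-high sort is the pattern for which the genes were selected, so it says nothing about the promoter. In monocytes both genes were high (means 9.88 for Cd79a and 8.47 for Ebf1), and in Ly6C-low microglia both were lower than in monocytes.

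Cd79b (probe set 10392142) was at 6.02, 6.64 and 6.22 in Ly6C-high arrays, 6.78, 7.16 and 7.28 in Ly6C-low arrays, and 10.15, 10.76 and 10.20 in monocyte arrays. It was the receptor chain whose microglia arrays did not overlap, with Ly6C-high microglia the lower. The mean was 6.29 ± 0.31 in the Ly6C-high sort, 7.07 ± 0.26 in the Ly6C-low sort and 10.37 ± 0.34 in monocytes. The difference between the microglia sorts was -0.78 ± 0.23 and shrank to -0.45 under cyclic loess scaling. Against monocytes it was -4.08 ± 0.23 in Ly6C-high microglia.

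Bank1 and Blk act inside the cell below the receptor. Bank1 (probe set 10502335), an adaptor that ties the receptor to calcium release, ran opposite to Ebf1 between the microglia sorts. It was at 5.92, 5.51 and 6.17 in Ly6C-high arrays, 7.94, 8.64 and 8.53 in Ly6C-low arrays, and 8.87, 9.42 and 9.95 in monocyte arrays. All 3 groups were apart, in the order Ly6C-high microglia, Ly6C-low microglia, monocytes from low to high. The means were 5.87 ± 0.33 in the Ly6C-high sort, 8.37 ± 0.38 in the Ly6C-low sort and 9.42 ± 0.54 in monocytes. Bank1 was thus lower in Ly6C-high than in Ly6C-low microglia (-2.50 ± 0.30) and lower than in monocytes (-3.55 ± 0.30). The difference between the microglia sorts ran from -2.72 to -2.17 over the processing alternatives.

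Blk (probe set 10420758), a Src family kinase of B cells, was at 6.07, 5.89 and 5.53 in Ly6C-high arrays, 5.93, 5.54 and 5.92 in Ly6C-low arrays, and 6.88, 7.35 and 7.85 in monocyte arrays. Unlike Bank1 it was at overlapping levels in the microglia sorts, 5.83 ± 0.28 in Ly6C-high microglia and 5.80 ± 0.22 in Ly6C-low microglia, with 7.36 ± 0.49 in monocytes. The differences of Ly6C-high microglia were 0.03 ± 0.25 against Ly6C-low microglia and -1.53 ± 0.25 against monocytes.

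Cr2 and Fcer2a encode receptors of mature B cells, for complement fragments (CD21) and for IgE (CD23). Cr2 (probe set 10361292) was at 5.11, 4.89 and 4.70 in Ly6C-high arrays, 4.76, 4.86 and 4.70 in Ly6C-low arrays, and 6.38, 6.52 and 7.47 in monocyte arrays. Fcer2a (probe set 10576757) was at 4.94, 4.71 and 4.08 in Ly6C-high arrays, 4.47, 4.55 and 4.69 in Ly6C-low arrays, and 7.85, 8.64 and 9.36 in monocyte arrays. For both genes the microglia sorts overlapped and every monocyte array was higher. Between the microglia sorts Cr2 differed by 0.13 ± 0.27 and Fcer2a by 0.01 ± 0.36. Against monocytes, Ly6C-high microglia stood at -1.89 ± 0.27 for Cr2 and at -4.04 ± 0.36 for Fcer2a.

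Vpreb3 (probe set 10364109), a chaperone of the immunoglobulin light chains first known from precursor B cells, was the most variable of the 9 genes within Ly6C-high microglia (SD 0.68). It was at 7.34, 5.99 and 6.72 in Ly6C-high arrays, 6.27, 5.94 and 5.92 in Ly6C-low arrays, and 8.27, 8.65 and 7.51 in monocyte arrays. Ly6C-high replicate 1 came close to the lowest monocyte array and replicate 2 lay within the Ly6C-low arrays. The mean was 6.68 ± 0.68 in the Ly6C-high sort, 6.05 ± 0.20 in the Ly6C-low sort and 8.14 ± 0.58 in monocytes. The difference between the microglia sorts, 0.64 ± 0.37, was 0.31 without Ly6C-high replicate 1 and 0.98 without replicate 2. Against monocytes it was -1.46 ± 0.37.

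Between Ly6C-high and Ly6C-low microglia, 1 of the 9 genes had arrays apart and higher (Ebf1), 2 had arrays apart and lower (Cd79b and Bank1), and 6 overlapped. Over all genes, 12.9% had arrays apart and higher and 17.2% apart and lower. The median difference of the 9 genes was 0.03, beside 0.05 for all genes. Against monocytes, 8 of the 9 had Ly6C-high arrays apart and lower, where 21.9% of all genes did, and Ebf1 overlapped. The median of the 9 was -2.51, beside 0.09 for all genes. These counts are a description of genes that were listed for this pattern.

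**Figure D2:**
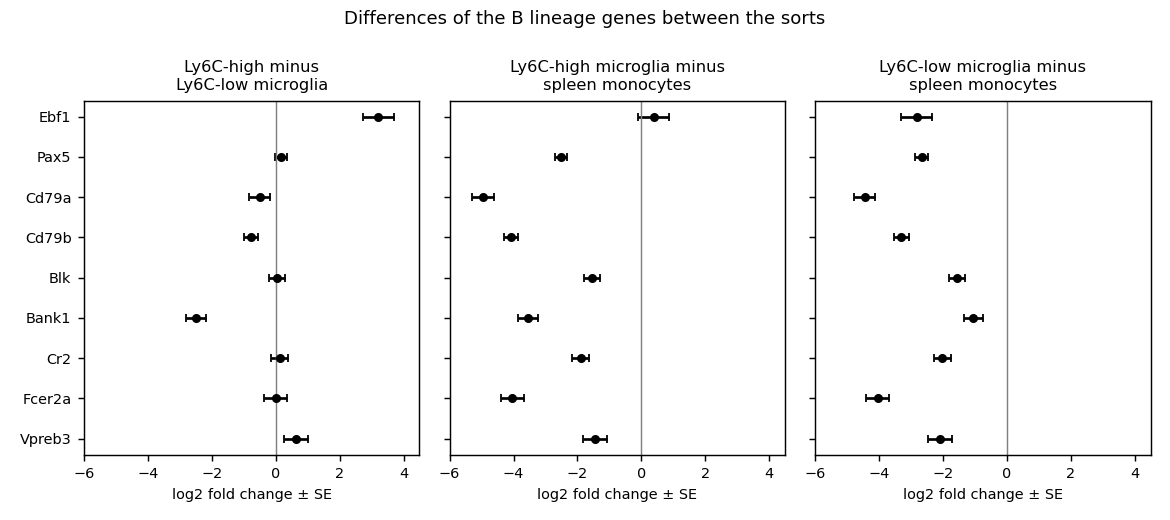
Log2 fold change of each B lineage gene (points, with SE as bars) in Ly6C-high minus Ly6C-low microglia, Ly6C-high microglia minus spleen monocytes, and Ly6C-low microglia minus spleen monocytes, from left to right. Ebf1 lies at 3.21 and Bank1 at -2.50 in the left panel while the other 7 genes lie between -0.78 and 0.64, and all 9 genes lie below 0 in the right panel.

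Ly6C-low microglia against spleen monocytes is the contrast that the choice of genes did not name. All 9 genes were lower in Ly6C-low microglia, and 8 passed the test, while 7.71% of all genes were called lower. That B cell genes were lower in this contrast was known when the list was drawn up, so the count is not independent evidence of the direction. The difference of Cd79a was -4.45 ± 0.33 (limma adjusted p = 6.46e-05) and that of Fcer2a -4.05 ± 0.36 (adjusted p = 0.000154). Cd79b stood at -3.30 ± 0.23 (adjusted p = 4.02e-05) and Pax5 at -2.67 ± 0.19 (adjusted p = 5.13e-05). Ebf1 stood at -2.82 ± 0.49 (adjusted p = 0.00522), and in 3 of 3 Ly6C-low arrays it was below all monocyte arrays. The others that passed were Vpreb3 (-2.09 ± 0.37, adjusted p = 0.00606), Cr2 (-2.02 ± 0.27, adjusted p = 0.00131) and Blk (-1.57 ± 0.25, adjusted p = 0.00384).

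Bank1 was the gene that did not pass, with -1.05 ± 0.30 (limma adjusted p = 0.0542). Its arrays were nevertheless apart, as those of all 9 genes were, where 19.1% of all genes had Ly6C-low arrays apart and lower. Its adjusted p ran from 0.03 to 0.175 over 20 processing alternatives and was under the threshold in 5 of them, for example 0.03 without monocyte replicate 1. The other 8 genes passed in all 20. The median difference of the 9 genes was -2.67, beside 0.05 for all genes. This contrast shares the monocyte arrays with that of Ly6C-high microglia, so the sizes of both are only set side by side. Cd79a stood at -4.96 in Ly6C-high and at -4.45 in Ly6C-low microglia, and Fcer2a at -4.04 in Ly6C-high and at -4.05 in Ly6C-low microglia. Bank1 stood at -3.55 in Ly6C-high and at -1.05 in Ly6C-low microglia, and Ebf1 at 0.39 in Ly6C-high and at -2.82 in Ly6C-low microglia.

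The spleen monocyte sort thus held the highest group mean of 8 of the 9 genes, and its own arrays differed. Replicate 1 was the lowest monocyte array for 8 of the genes and replicate 3 for Vpreb3. Replicate 2 was the highest for 4 genes, Ebf1, Cd79a, Cd79b and Vpreb3, and replicate 3 for the other 5. Fcer2a spanned 7.85 to 9.36 and Cd79a 9.29 to 10.41 within this group. Lymphocyte genes of another lineage were also high in this sort. The mean of 10 T and NK cell genes was 5.19 to 5.56 in Ly6C-high arrays, 5.16 to 5.36 in Ly6C-low arrays and 7.54 to 8.34 in monocyte arrays. Of the 10, 8 were called lower in each microglia sort than in monocytes, and Ncr1 and Klrb1c were called in neither contrast. Over all genes 14.6% were called lower in Ly6C-high microglia and 7.71% in Ly6C-low microglia. Cd3e, a chain of the T cell receptor complex, was at 6.16, 6.76 and 6.40 in Ly6C-high arrays, 6.64, 6.21 and 6.05 in Ly6C-low arrays, and 9.54, 9.13 and 9.26 in monocyte arrays. The part of such cells in the B lineage values was not tested.

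Across the 9 arrays, 7 of the genes varied together. Pearson correlations of the 21 pairs among Pax5, Cd79a, Cd79b, Blk, Cr2, Fcer2a and Vpreb3 ran from 0.769 to 0.986. Ebf1 correlated with these 7 at 0.19 to 0.627 and Bank1 at 0.409 to 0.811, and Ebf1 with Bank1 at -0.312. The split into these 7 and the other two was made after the values were seen. The points are 9 arrays of 3 sorts that differ in tissue, so these coefficients mostly restate the group means and carry no test.

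The 5 genes most like Ebf1 over the 9 arrays stood on none of the B lineage lists. Among 3126 genes with a range of at least 2 between their highest and lowest array, the closest by Pearson correlation were Ctla2a (0.961), Car2 (0.953), Serpinb6b (0.948), Pde2a (0.943) and Cdc42ep3 (0.942). Ctla2a, a cysteine protease inhibitor whose probes may be shared with its close relative Ctla2b, averaged 9.92 in the Ly6C-high sort, 5.10 in the Ly6C-low sort and 8.90 in monocytes. Car2, a carbonic anhydrase, averaged 8.18 in the Ly6C-high sort, 5.99 in the Ly6C-low sort and 8.21 in monocytes. In all 5 the Ly6C-low mean was the lowest, as for Ebf1, and in Car2 and Serpinb6b the monocyte mean was the highest, where in Ebf1 the Ly6C-high mean was.

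The genes most like Cd79a were Adam8 (0.991), Jarid2 (0.989), Treml4 (0.989), Il12rb2 (0.988) and Ikzf3 (0.988). Ikzf3 encodes Aiolos, a zinc finger factor of lymphocytes, and averaged 4.74 in the Ly6C-high sort, 4.84 in the Ly6C-low sort and 8.04 in monocytes. Treml4, known from splenic myeloid cells, averaged 5.49 in the Ly6C-high sort, 5.62 in the Ly6C-low sort and 10.67 in monocytes. A likeness to Cd79a over these arrays was therefore shared by genes of B cells and of spleen myeloid cells.

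The other genes of the B lineage were read in lists. Of 13 B cell surface genes, 12 were called lower in Ly6C-high microglia than in monocytes and 10 lower in Ly6C-low microglia, with median differences of -2.22 and -1.76. Over all genes 14.6% were called lower in the first of these contrasts and 7.71% in Ly6C-low microglia against monocytes. Ms4a1, which encodes CD20, was at 4.47, 4.01 and 4.04 in Ly6C-high arrays, 4.16, 3.79 and 4.12 in Ly6C-low arrays, and 8.21, 9.19 and 8.66 in monocyte arrays. It was low in every microglia array and high in every monocyte array, as Cd79a was. The difference from monocytes was -4.51 ± 0.25 in Ly6C-high microglia (limma adjusted p = 1.61e-05) and -4.66 ± 0.25 in Ly6C-low microglia (adjusted p = 1.1e-05). Cxcr5, the receptor that guides B cells into follicles, stood at -2.72 in Ly6C-high and -2.61 in Ly6C-low microglia, and both differences passed. Fcmr, the receptor for IgM, stood at -2.92 in Ly6C-high and -3.22 in Ly6C-low microglia, and both passed.

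Between the microglia sorts 3 of the 13 surface genes were called lower in Ly6C-high microglia, where 15.4% of all genes were called in either direction and 2185 of 19937 were called lower, and the list median was -0.23. They were Cd180 (-2.59 ± 0.59, limma adjusted p = 0.018), a toll-like receptor homologue, Cd37 (-2.14 ± 0.13, adjusted p = 4.39e-05), a tetraspanin, and Cd72 (-1.53 ± 0.35, adjusted p = 0.0184), an inhibitory lectin. Without Ly6C-low replicate 2 or replicate 3 the count was 1. Cd37 and Cd180 are also known from myeloid cells, and which cells gave their signal here was not tested. Cd37 was at 9.91 ± 0.12 in Ly6C-low microglia and 9.99 ± 0.16 in monocytes. Cd180 was at 10.84 ± 0.27 in Ly6C-low microglia and 10.48 ± 0.23 in monocytes.

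Genes that act below the B cell receptor gave another pattern. All 12 measured members of this list were called lower in Ly6C-high than in Ly6C-low microglia (median -2.19), where 2185 of all 19937 genes were called lower. That count ran from 8 to 12 over the 20 alternatives, and the call of Syk was lost in 6 of them. All 12 were also called lower in Ly6C-high microglia than in monocytes (median -2.01), where 14.6% of all genes were. Most of them serve receptors of myeloid cells as well. Blnk, the adaptor that SYK phosphorylates, was at 6.09, 6.25 and 7.61 in Ly6C-high arrays, 9.78, 10.43 and 10.56 in Ly6C-low arrays, and 8.35, 8.76 and 8.77 in monocyte arrays. The 3 groups were apart, and the difference between the microglia sorts was -3.60 ± 0.39 (limma adjusted p = 0.0005). Dapp1, an adaptor that binds the lipid products of PI 3-kinase, stood at -3.23 ± 0.41 (adjusted p = 0.00116) and Inpp5d, the lipid phosphatase SHIP1, at -2.80 ± 0.19 (adjusted p = 6.45e-05). Against monocytes, Ly6C-high microglia had Syk, the kinase recruited by Cd79a and Cd79b, at -3.25 ± 0.46 (adjusted p = 0.00179) and Btk at -2.39 ± 0.49 (adjusted p = 0.0107). Of the B lineage genes in the same stretch of the pathway, Bank1 was lower in Ly6C-high than in Ly6C-low microglia too (-2.50), and Blk stood at 0.03.

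In Ly6C-low microglia against monocytes the same list had 2 members called higher, with a median of 0.03, where 6.80% of all genes were called higher. Blnk was higher by 1.63 ± 0.39 (limma adjusted p = 0.0255) and Inpp5d by 0.87 ± 0.19 (adjusted p = 0.0167). Neither passed without Ly6C-low replicate 2 or 3 or without monocyte replicate 1 or 3. Syk stood at -1.39 ± 0.46 and did not pass (adjusted p = 0.0888), and with only the 6 arrays of these sorts fitted 3 members were called lower. The genes of the receptor itself, Cd79a and Cd79b, stood at -4.45 and -3.30 in the same contrast.

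**Figure D3:**
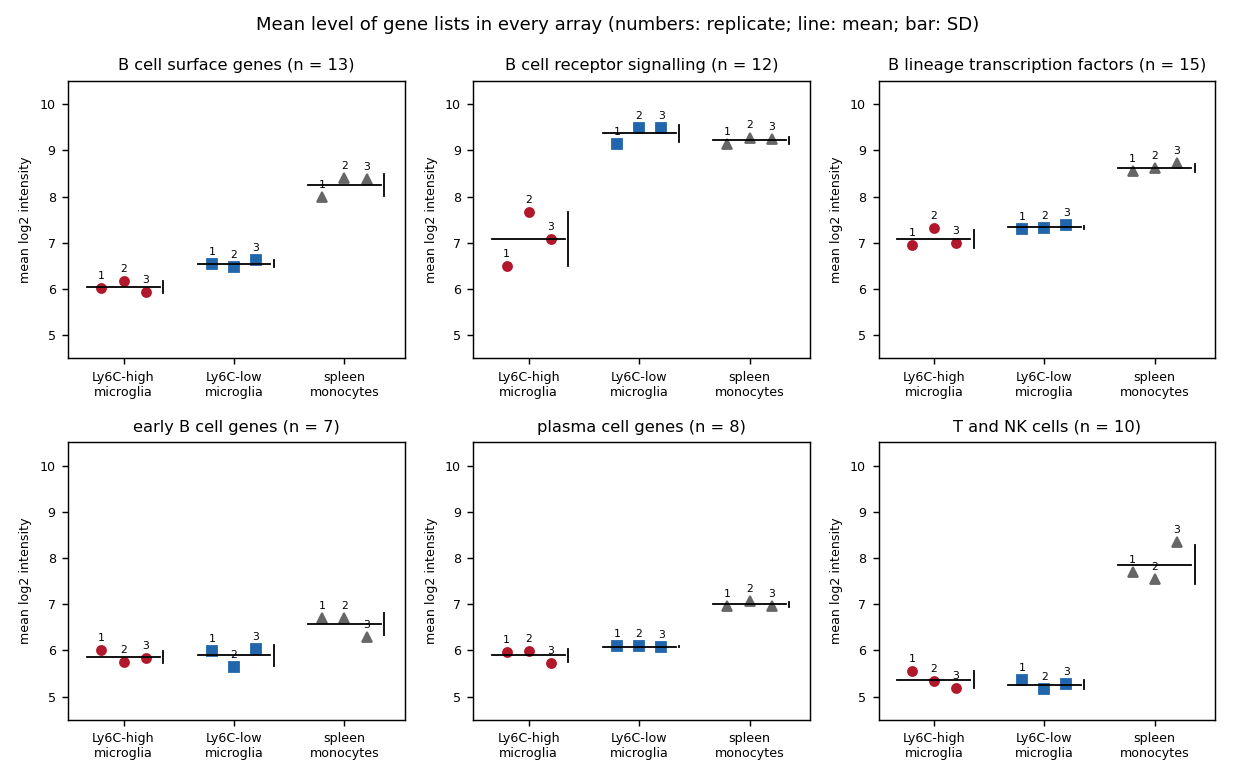
Mean log2 intensity of 6 gene lists in each of the 9 arrays, with points numbered by replicate, horizontal lines for group means and vertical bars for SD (n = 3 arrays; the n in each panel title counts genes). B cell surface genes and T and NK cell genes are highest in the monocyte arrays, while B cell receptor signalling genes are at 6.51 to 7.66 in Ly6C-high arrays, 9.15 to 9.48 in Ly6C-low arrays and 9.14 to 9.28 in monocyte arrays.

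Of 15 further transcription factors of the B lineage, 1 was called higher and 5 were called lower in Ly6C-high than in Ly6C-low microglia, with a median of 0.00. Over all 19937 genes 895 (4.49%) were called higher and 2185 lower. Lef1, a Wnt effector of precursor lymphocytes that is also known in brain endothelium, was at 10.05, 9.64 and 10.30 in Ly6C-high arrays, 7.10, 6.26 and 6.07 in Ly6C-low arrays, and 8.53, 8.32 and 8.47 in monocyte arrays. Like Ebf1 it was high in all Ly6C-high arrays and highest in replicate 1 among the Ly6C-low arrays. It rose by 3.52 ± 0.27 (limma adjusted p = 0.000105) against Ly6C-low microglia and by 1.56 ± 0.27 (adjusted p = 0.005) against monocytes, where Ebf1 stood at 0.39. Under quantile and cyclic loess scaling 3 and 4 of the 15 were called higher between the microglia sorts, and 2 without Ly6C-high replicate 1. The lower ones included Ikzf1 (-2.21 ± 0.42, adjusted p = 0.00848), the Ikaros factor of all lymphoid cells, Irf8 (-1.43 ± 0.20, adjusted p = 0.00189) and Spi1 (-1.71 ± 0.43, adjusted p = 0.0302), which encodes PU.1 and whose call was lost in 9 of 20 alternatives.

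Against monocytes, 11 of the 15 factors were called lower in Ly6C-high microglia and 7 in Ly6C-low microglia, with medians of -2.12 and -0.93. Over all genes 14.6% were called lower in Ly6C-high microglia and 7.71% in Ly6C-low microglia. Spib, an ETS factor of B cells and plasmacytoid dendritic cells, stood at -3.57 ± 0.27 in Ly6C-high microglia (limma adjusted p = 6.67e-05) and -3.77 ± 0.27 in Ly6C-low microglia (adjusted p = 5.1e-05). Ikzf3 stood at -3.31 ± 0.15 (adjusted p = 6.3e-06) in Ly6C-high and -3.20 ± 0.15 (adjusted p = 5.77e-06) in Ly6C-low microglia. Pou2af1, the B cell coactivator OBF1, stood at -2.69 ± 0.26 (adjusted p = 0.000234) in Ly6C-high and -2.79 ± 0.26 (adjusted p = 0.000196) in Ly6C-low microglia. In Ly6C-high arrays these 3 factors were low, as Pax5 was, and Ebf1 and Lef1 were high. Not all other factors of the list were low there. Tcf3 (-0.08), Tcf12 (0.09) and Foxo1 (-0.37) were not called in Ly6C-high microglia against monocytes. Their Ly6C-high means were 7.85 for Tcf3, 8.37 for Tcf12 and 8.05 for Foxo1.

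Stage markers on either side of the mature B cell were read as well. Of 7 early B cell genes, Vpreb1, Igll1, Rag1, Rag2 and Dntt passed in none of the 3 contrasts by limma. Over all genes 15.4% were called in either direction between the microglia sorts. Against monocytes 14.6% were called lower in Ly6C-high microglia and 7.71% in Ly6C-low microglia. Rag1 (-0.65, adjusted p = 0.0743) and Dntt (-0.39, adjusted p = 0.0988) came closest, both lower in Ly6C-low microglia than in monocytes, with an unadjusted p under 0.05. Between the microglia sorts Rag1 had arrays apart and higher in the Ly6C-high sort (0.28 ± 0.20, adjusted p = 0.409), as 12.9% of all genes had. Rag1, a subunit of the recombinase, was at 4.36, 4.25 and 4.40 in Ly6C-high arrays, 4.02, 3.96 and 4.19 in Ly6C-low arrays, and 5.10, 4.79 and 4.22 in monocyte arrays. Il7r, the receptor for the cytokine on which early B cells depend, was lower in Ly6C-high than in Ly6C-low microglia (-3.16 ± 0.22, limma adjusted p = 6.45e-05), with 6.14 ± 0.23 in the Ly6C-high sort, 9.31 ± 0.37 in the Ly6C-low sort and 9.08 ± 0.24 in monocytes. Cd24a, a surface glycoprotein of precursor B cells and many other cells, was higher in Ly6C-high than in Ly6C-low microglia (1.90 ± 0.33, adjusted p = 0.00522). Its level was 9.38 ± 0.29 in the Ly6C-high sort, 7.47 ± 0.75 in the Ly6C-low sort and 10.89 ± 0.09 in monocytes. Both microglia sorts were called lower than monocytes for Cd24a. In the Ly6C-high sort, high Ebf1 thus stood beside low Il7r and a Cd24a level above that of Ly6C-low microglia. Pax5 was low in both microglia sorts.

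Of 8 plasma cell genes, 3 were called lower in each microglia sort than in monocytes. The list medians were -0.19 in Ly6C-high and -0.18 in Ly6C-low microglia. Over all genes 14.6% were called lower in the first of these contrasts and 7.71% in the second. Jchain, which joins secreted immunoglobulin, was at 3.90, 3.63 and 3.60 in Ly6C-high arrays, 3.80, 3.54 and 3.48 in Ly6C-low arrays, and 8.53, 8.58 and 8.82 in monocyte arrays. The difference from monocytes was -4.93 ± 0.14 in Ly6C-high microglia (limma adjusted p = 1.83e-06) and -5.03 ± 0.14 in Ly6C-low microglia (adjusted p = 1.43e-06). Prdm1, the master factor of plasma cells, and Mzb1, a chaperone of the secretory pathway, were also lower in both. Tnfrsf17, which encodes the survival receptor BCMA, ran otherwise, with 4.88 ± 0.20 in the Ly6C-high sort, 6.35 ± 0.08 in the Ly6C-low sort and 4.74 ± 0.03 in monocytes. It was lower in Ly6C-high than in Ly6C-low microglia (-1.47 ± 0.12, adjusted p = 0.000123) and higher in Ly6C-low microglia than in monocytes (1.61 ± 0.12, adjusted p = 5.98e-05).

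The relatives and partners of Ebf1 were read beside it. Ebf2 and Ebf4 passed in no contrast by limma, at the adjusted threshold or at an unadjusted p under 0.05. For both, every Ly6C-high array nevertheless lay above every Ly6C-low and monocyte array. The differences from Ly6C-low microglia were small, 0.15 for Ebf2 and 0.09 for Ebf4. Over all genes 12.9% had Ly6C-high arrays apart from and above the Ly6C-low arrays. Against monocytes, 4796 of all 19937 genes had Ly6C-high arrays apart and above. Ebf3 was at 6.11 in all 3 Ly6C-high arrays, 7.17, 7.39 and 7.23 in Ly6C-low arrays, and 5.81, 5.70 and 5.70 in monocyte arrays. The 3 Ly6C-high values of Ebf3 were identical as deposited (SD 0), so its spread may be understated. It was lower in Ly6C-high than in Ly6C-low microglia (-1.16 ± 0.10, limma adjusted p = 0.000151), opposite to Ebf1. Against monocytes Ebf3 was higher in Ly6C-high microglia (0.37 ± 0.10, limma adjusted p = 0.0293). Zfp423, a zinc finger protein that binds EBF1, was at 7.09, 8.21 and 7.49 in Ly6C-high arrays, 6.40, 6.10 and 5.86 in Ly6C-low arrays, and 5.99, 5.98 and 6.07 in monocyte arrays. It was apart and higher in Ly6C-high microglia, by 1.48 ± 0.26 against Ly6C-low microglia (adjusted p = 0.00603) and by 1.58 ± 0.26 against monocytes (adjusted p = 0.00398), a contrast in which 6.88% of all genes were called higher. Its level was highest in Ly6C-high replicate 2, in which Ebf1 was lowest of that group. Zfp521, the relative of Zfp423, was higher than in Ly6C-low microglia by 0.59 ± 0.17 (adjusted p = 0.0479), a call lost in 12 of 19 alternatives.

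Genes of brain endothelium were higher where Ebf1 was higher between the microglia sorts. All 14 on this list were called higher in Ly6C-high than in Ly6C-low microglia, with a median of 3.51. Over all genes 4.49% were called higher in this contrast, and the median was 0.05. Cldn5, the tight junction protein of brain capillaries, was at 10.71, 11.77 and 11.74 in Ly6C-high arrays, 8.96, 8.13 and 7.56 in Ly6C-low arrays, and 6.89, 6.49 and 6.81 in monocyte arrays. In monocytes the endothelial mean was 5.96 to 6.05 and Ebf1 was at 7.92 to 8.97. That sort also held the highest group means of Cd79a (9.88) and Pax5 (8.62). Between the microglia sorts the median of 14 pericyte and smooth muscle genes was 0.75, with all 14 differences above 0. Of these genes 1 was called higher, Vtn, where 4.49% of all genes were. That count was 3 without replicate 2 of the Ly6C-high sort, 3 without replicate 1 of the Ly6C-low sort, 2 without replicate 1 of the Ly6C-high sort and 6 with array weights. Vtn, vitronectin, which brain pericytes express, was at 9.06, 8.42 and 10.30 in Ly6C-high arrays, 7.30, 7.04 and 6.60 in Ly6C-low arrays, and 5.66, 5.66 and 5.15 in monocyte arrays (2.28 ± 0.43 against Ly6C-low microglia, limma adjusted p = 0.00778). Rgs5, another pericyte gene, differed by 1.98 ± 0.58 and did not pass (adjusted p = 0.0537), though it passed in 8 of 20 alternatives. The mean of the 14 was 7.05 to 8.36 in Ly6C-high arrays, 6.22 to 7.13 in Ly6C-low arrays and 6.03 to 6.10 in monocyte arrays. None of 6 fibroblast genes passed between the microglia sorts by limma at the adjusted threshold or at an unadjusted p under 0.05. The part of vessel cells in the Ebf1 level of the Ly6C-high sort was not tested.

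**Figure D4:**
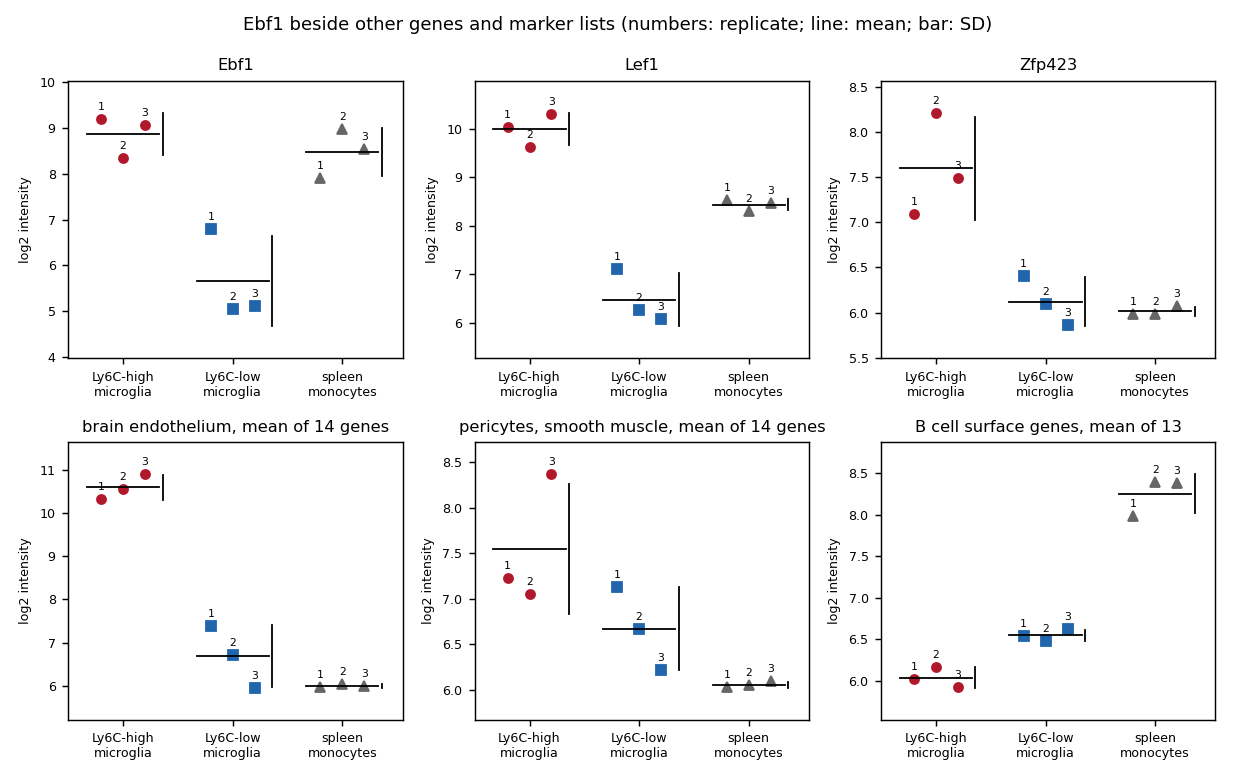
Log2 intensity of Ebf1, Lef1 and Zfp423 and mean log2 intensity of 3 marker lists in each of the 9 arrays, with points numbered by replicate, horizontal lines for group means and vertical bars for SD (n = 3); each panel has its own vertical scale. Ebf1, Lef1 and the endothelial mean are high in Ly6C-high arrays and highest in replicate 1 among Ly6C-low arrays. Among Ly6C-high arrays Ebf1 is highest in replicate 1, where the endothelial mean is lowest. In monocytes Ebf1 is at 7.92 to 8.97 and the endothelial mean at 5.96 to 6.05.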

How the data were processed

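The authors deposited log2 intensities of all arrays in 1 table, with each array in its own column. The submitters' processing notes list RMA and oligo with no version. Neither the settings nor the genome build of the array design is given in the sources used here. RMA can compress differences of dim genes, and a common scaling of different cell types can shift genes that did not change. Of 34760 probe sets, 21640 had 1 gene symbol in the platform annotation, 1321 several and 11799 none. Genes with several probe sets (954) took the brightest by its mean over the arrays, which left 19937. limma 3.58.1 in R 4.3.3 (lmFit, eBayes) fitted 3 group means to all 9 arrays, with two-sided tests and Benjamini-Hochberg adjustment over all genes. The code was tested on simulated data. The 9 genes and the other gene lists were chosen with earlier results of these data known. Up to 4 genes per list and contrast with the largest absolute change were eligible to be named, with the 5 genes most correlated with Ebf1 and with Cd79a. Tcf3, Cd3e, Cldn5 and the genes counted as not passing were named outside this rule, after their values were seen, as were values of listed genes in further contrasts. Some genes of the lists are not reported here. Promoter windows are from RefSeq, and no other coordinates are given.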

Additional observations from a re-analysis of the deposited data

How the results depend on the processing

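Each result was recomputed under 20 alternatives, or 19 for a gene that the filter on dim genes removed, of which the joint omission of replicate 2 of the Ly6C-high and replicate 3 of the Ly6C-low sort was added after seeing the data. The count of B lineage genes called lower in Ly6C-low microglia than in monocytes was 8 or 9 throughout. The number of genes called between Ly6C-high and Ly6C-low microglia, 3080, was 2038 with only the 6 arrays compared and 1956 to 3888 with 1 array left out, with 2011 and 1956 without Ly6C-low replicate 2 and 3. Between Ly6C-high microglia and monocytes, 4290 became 2505 to 6091 with 1 array left out, with 2505 and 2511 without monocyte replicate 1 and 2. Between Ly6C-low microglia and monocytes, 2894 became 4614 with 6 arrays, 5738 with array weights and 1864 to 3778 with 1 array left out, with 1864 without monocyte replicate 1. The cause was not tested, beyond the smaller number of arrays. With the title number as a replicate block the 3 counts were 2973, 4295 and 2795, and the adjusted p of Bank1 in Ly6C-low microglia against monocytes was 0.033. With the description number as a replicate block they were 3936, 4286 and 2937. Deviations of Ly6C-high and Ly6C-low arrays with the same title number correlated at 0.301, 0.153 and -0.032, and those of the 2 pairs with the same description number at 0.301 and 0.21. The labels do not say what either number marks, so the arrays were not treated as paired. The share of calls that were higher in Ly6C-high than in Ly6C-low microglia was 29.1%, and 41.7% under quantile normalization and 43.9% under cyclic loess, and against monocytes it was 32.0%, 46.4% and 45.0%. Tcf3 in Ly6C-high microglia against monocytes, -0.08 as deposited, was 0.38 under quantile normalization (limma adjusted p = 0.0327) and 0.35 under cyclic loess (adjusted p = 0.0255). Signal over background is not in the deposited table, so dim genes such as Cr2 and Fcer2a in the microglia sorts have no detection limit here.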
